A study of Mus musculus with 24 samples.

Results

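The genes described are 9 components of central nervous system myelin, Mbp, Mog, Mag, Mobp, Cnp, Cldn11, Mal, Ermn and Opalin, taken by symbol from a table of 19661 mouse genes. Each symbol matched 1 entry, and all 9 passed the filter of a mean of at least 1 RPKM (read density scaled to transcript length and library size) that left 12399 genes for testing. RNA was sequenced from the dorsal hippocampus, taken from both sides, of 24 mice in 4 groups of 6. The groups were trained Baf53b+/- mice, killed 30 minutes after object location memory training, home cage Baf53b+/- mice, wild-type mice killed at the same time after training, and home cage wild-type mice. Object location memory training lets a mouse explore objects whose places it can later recall. Baf53b+/- mice carry 1 copy of the Actl6b tm1Grc allele, and Actl6b encodes BAF53b, the neuron-specific subunit of the BAF chromatin remodelling complex. The heterozygotes are labelled B6J.129S6 and the wild-type mice C57BL/6J, so genotype and strain background cannot be told apart. Home cage mice are the only control for training that the labels give, and no label used here states the age of the mice.

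Oligodendrocytes wrap axons of the brain in layers of membrane, and the genes below encode proteins that build or support these layers. MBP and MOBP hold the cytoplasmic faces of the membrane together in compact myelin, and CLDN11 forms the tight junctions between the layers. CNP keeps cytoplasmic channels through the sheath open, ERMN is a cytoskeletal protein of the outer parts of the sheath, and OPALIN is a membrane glycoprotein of mature oligodendrocytes. MAG faces the axon, MOG lies on the outer surface of the sheath, and MAL is a proteolipid of the vesicle traffic to myelin membrane. In the hippocampus, myelin lies mainly in the white matter above CA1 (the alveus and the neighbouring corpus callosum), in the fimbria and along axons of the deeper layers. The transcription factors SOX10 and MYRF are known activators of many of these genes.

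The 250 bases upstream of the RefSeq start (build GRCm38.p6) were searched on both strands for CTGGCAC or CTGGTAC, letters of the MYRF motif, and for ACAAAG or ACAATG, letters bound by SOX proteins. Of the 9 genes, 8 were in the promoter table. A gene was counted where any of its listed starts had a match, and Mag has several, not all with a match. MYRF letters were found for Mog, Mag and Cnp (3 of 8) and for 2 of 24 other myelin genes, against 6.8% of 27025 genes counted the same way and 5.9% of all 32851 promoters. SOX letters were found for Mag, Mobp, Cnp, Ermn and Opalin (5 of 8) and for 9 of 24 other myelin genes, against 28.2% of genes and 25.2% of promoters. No MYRF match overlapped a SOX match in these regions. The 5 regions below are shown because their genes span the range of co-variation described further on and the range of matches. Capitals mark a match on either strand, and each line runs 5′ to 3′ on the strand of the gene, ending at the base before the start.
Cnp, chr11:100574689-100574938, plus strand: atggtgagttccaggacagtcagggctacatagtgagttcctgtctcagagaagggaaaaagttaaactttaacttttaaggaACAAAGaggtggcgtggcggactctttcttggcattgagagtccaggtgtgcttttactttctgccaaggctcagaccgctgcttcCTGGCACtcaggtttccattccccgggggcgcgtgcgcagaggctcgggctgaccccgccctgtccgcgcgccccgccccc
Mobp, chr9:120149492-120149741, plus strand: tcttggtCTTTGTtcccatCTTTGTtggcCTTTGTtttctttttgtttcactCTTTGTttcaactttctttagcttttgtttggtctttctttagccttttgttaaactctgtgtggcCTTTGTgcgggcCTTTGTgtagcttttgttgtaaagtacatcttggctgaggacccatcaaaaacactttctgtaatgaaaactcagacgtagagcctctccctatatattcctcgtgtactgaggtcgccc
Mog, chr17:37023399-37023648, minus strand: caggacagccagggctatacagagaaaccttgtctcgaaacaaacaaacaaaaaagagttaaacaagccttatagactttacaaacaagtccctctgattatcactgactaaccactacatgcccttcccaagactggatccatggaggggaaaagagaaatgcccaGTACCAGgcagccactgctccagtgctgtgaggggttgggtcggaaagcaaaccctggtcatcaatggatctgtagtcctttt
Ermn, chr2:58052865-58053114, minus strand: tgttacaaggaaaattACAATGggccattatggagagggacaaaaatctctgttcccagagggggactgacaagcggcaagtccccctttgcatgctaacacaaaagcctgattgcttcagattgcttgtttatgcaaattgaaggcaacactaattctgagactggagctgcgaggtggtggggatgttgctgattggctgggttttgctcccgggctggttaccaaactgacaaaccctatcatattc
Cldn11, chr3:31149670-31149919, plus strand: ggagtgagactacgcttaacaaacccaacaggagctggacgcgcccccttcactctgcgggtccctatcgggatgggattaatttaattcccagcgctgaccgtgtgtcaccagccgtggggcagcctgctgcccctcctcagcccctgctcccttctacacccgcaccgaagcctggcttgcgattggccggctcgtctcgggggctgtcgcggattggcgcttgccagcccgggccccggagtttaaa
The Cnp region held MYRF letters 81 bases and SOX letters 167 bases before the start. The Mobp region held 6 SOX matches, all as CTTTGT, the other strand of ACAAAG, between 243 and 120 bases before the start. The Mog region held MYRF letters as GTACCAG 83 bases before the start and no SOX letters. The Ermn region held SOX letters 234 bases before the start, and the Cldn11 region held none of the letters searched. These matches describe letters, and binding was not measured.

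Depth recovered from the RPKM values ran from 28.4 to 46.9 M reads a library with a median of 34.4 M. At the lowest depth, 20 RPKM corresponds to 568 reads per kilobase of transcript and a counting error of 4.2%. Actl6b ran from 27.3 to 31.1 RPKM in trained and 28.7 to 32.4 RPKM in home cage Baf53b+/- mice, against 46.4 to 54.4 RPKM in trained and 49.8 to 53.0 RPKM in home cage wild-type mice, so every library went with its genotype label. Fos, an early gene induced by neuronal activity, averaged 12.6 ± 1.67 RPKM in trained and 1.86 ± 0.44 RPKM in home cage Baf53b+/- mice, and 14.3 ± 4.58 RPKM in trained and 1.89 ± 0.687 RPKM in home cage wild-type mice (SD, n = 6 each). Of the libraries, 6 were rich in choroid plexus transcripts (choroid-rich below), 2 of trained and 2 of home cage Baf53b+/- mice, 1 of trained and 1 of home cage wild-type mice. The summed level of 14 choroid plexus markers reached 2393 RPKM in trained and 4788 RPKM in home cage Baf53b+/- mice, and 1424 RPKM in trained and 1657 RPKM in home cage wild-type mice, with group medians of 47.5, 102, 128 and 42.2 RPKM in the same order. Some results below are given with and without these libraries, and the others only with them. The Y-linked gene Ddx3y was expressed in 3 of 6 libraries of trained and 5 of 6 of home cage Baf53b+/- mice, and in 3 of 6 of each wild-type group.

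All 9 genes were abundant, and their levels kept nearly the same order in every mouse. The levels below are RPKM, which is per length, averaged over 24 mice. Mbp led at 1033 RPKM (range 613 to 1278), followed by Mal at 129 (71.5 to 171), Cnp at 125 (73.6 to 161), Cldn11 at 78.2 (46.5 to 108), Mag at 75.5 (44.0 to 93.7), Mobp at 63.2 (36.1 to 79.4), Mog at 38.9 (21.1 to 56.3), Opalin at 32.8 (18.5 to 42.5) and Ermn at 26.9 (15.7 to 35.4). The order held within single mice: Mbp exceeded Mal, Cnp exceeded Cldn11, Mag exceeded Mobp, Mobp exceeded Mog and Mog exceeded Opalin in 24 of 24 mice, and Opalin exceeded Ermn in 22 of 24. Neighbours whose levels did not separate were Mal and Cnp, with Mal higher in 18 of 24 mice, and Cldn11 and Mag, with Cldn11 higher in 17 of 24. Together the 9 genes made up 0.325% to 0.698% of all RPKM of a library, and Mbp alone held 61.0% to 66.9% of that share. Of 10 listed markers of Schwann cells, which make peripheral myelin, 8 were in the table, and 6 of these averaged under 1 RPKM, among them Pmp2 at 0.0228 RPKM. The other markers were Drp2 at 11.2 RPKM and Cdh19 at 1.85 RPKM, and the summed level ran from 13.9 to 15.1 RPKM in trained and 13.6 to 14.5 RPKM in home cage Baf53b+/- mice, and from 13.8 to 15.1 RPKM in trained and 13.4 to 14.7 RPKM in home cage wild-type mice.

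The positions of the entries are in mm9, the build of the deposited table. Mbp spans chr18:82644515-82755029, a span that as background also holds the transcripts known as golli-Mbp, so its value need not be that of the myelin transcripts alone. Mog lies at chr17:37147685-37160343, Mag at chr7:31684202-31699851, Mobp at chr9:120058860-120085209 and Cnp at chr11:100436253-100443053. Cldn11 lies at chr3:31048842-31063248, Mal at chr2:127458962-127482431, Ermn at chr2:57897526-57905163 and Opalin at chr19:41137910-41151603. In the GENCODE annotation of GRCm38, exons of Cnp overlap Dnajc7 and exons of Ermn overlap Galnt5 on the opposite strand, and exons of Mobp overlap Gm38642 on the same strand. The kit keeps no strand, so reads from these overlaps cannot be told apart.

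Within each group the mice differed widely, and the groups overlapped for every gene described here. The same overlap was not counted over all tested genes, so it is a description and not a feature of myelin genes. Mbp ran from 931 through a median of 1164 to 1268 RPKM in trained and from 827 through 972 to 1203 RPKM in home cage Baf53b+/- mice. In wild-type mice Mbp ran from 786 through 1061 to 1256 RPKM after training and from 613 through 1049 to 1278 RPKM in the home cage. All 6 trained heterozygotes lay inside the span of the home cage wild-type mice.

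The other genes of compact myelin behaved alike. Mobp had a lowest, median and highest level of 53.9, 68.7 and 77.0 RPKM in trained and 49.2, 60.5 and 75.2 RPKM in home cage Baf53b+/- mice. In wild-type mice the 3 values for Mobp were 46.8, 66.6 and 79.4 RPKM after training and 36.1, 60.2 and 79.4 RPKM in the home cage. Both wild-type groups reached above the highest heterozygote, and the home cage one also went lowest. Cldn11 had 63.8, 84.5 and 96.3 RPKM in trained and 60.8, 75.3 and 92.7 RPKM in home cage Baf53b+/- mice, against 54.9, 79.0 and 95.8 RPKM in trained and 46.5, 76.2 and 108 RPKM in home cage wild-type mice. The home cage wild-type mice held both the lowest and the highest of the 24 values of Cldn11.

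Among the proteins of the cytoplasmic channels and the outer sheath, Cnp had a lowest, median and highest level of 108, 133 and 150 RPKM in trained and 105, 118 and 142 RPKM in home cage Baf53b+/- mice. In wild-type mice Cnp had 95.1, 126 and 152 RPKM after training and 73.6, 126 and 161 RPKM in the home cage, so the median was highest in the trained heterozygotes and lowest in the home cage heterozygotes. Ermn had 22.5, 28.3 and 32.4 RPKM in trained and 20.1, 22.9 and 31.9 RPKM in home cage Baf53b+/- mice, against 22.8, 27.3 and 31.9 RPKM in trained and 15.7, 27.9 and 35.4 RPKM in home cage wild-type mice. For Ermn the home cage heterozygotes fell into 2 mice at 31.3 and 31.9 RPKM and 4 at or below 24.5 RPKM. Opalin had 29.2, 34.7 and 38.9 RPKM in trained and 27.5, 31.0 and 41.2 RPKM in home cage Baf53b+/- mice. In wild-type mice Opalin had 24.2, 31.3 and 40.0 RPKM after training and 18.5, 34.9 and 42.5 RPKM in the home cage, with full overlap of the groups.

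The adhesion and surface proteins and the trafficking proteolipid showed the same overlap. Mag averaged 80.9 ± 9.64 RPKM in trained and 71.5 ± 10.6 RPKM in home cage Baf53b+/- mice, and 74.1 ± 13.9 RPKM in trained and 75.4 ± 17.8 RPKM in home cage wild-type mice (SD, n = 6 each). Mog averaged 41.0 ± 5.68 RPKM in trained and 37.7 ± 6.16 RPKM in home cage Baf53b+/- mice, and 38.1 ± 6.53 RPKM in trained and 38.9 ± 11.5 RPKM in home cage wild-type mice. Mal averaged 137 ± 18.2 RPKM in trained and 127 ± 17.5 RPKM in home cage Baf53b+/- mice, and 126 ± 20.3 RPKM in trained and 126 ± 33.6 RPKM in home cage wild-type mice. For all 9 genes the SD was largest in the home cage wild-type mice. The plot of RPKM by group shows these values.

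**Figure D1:**
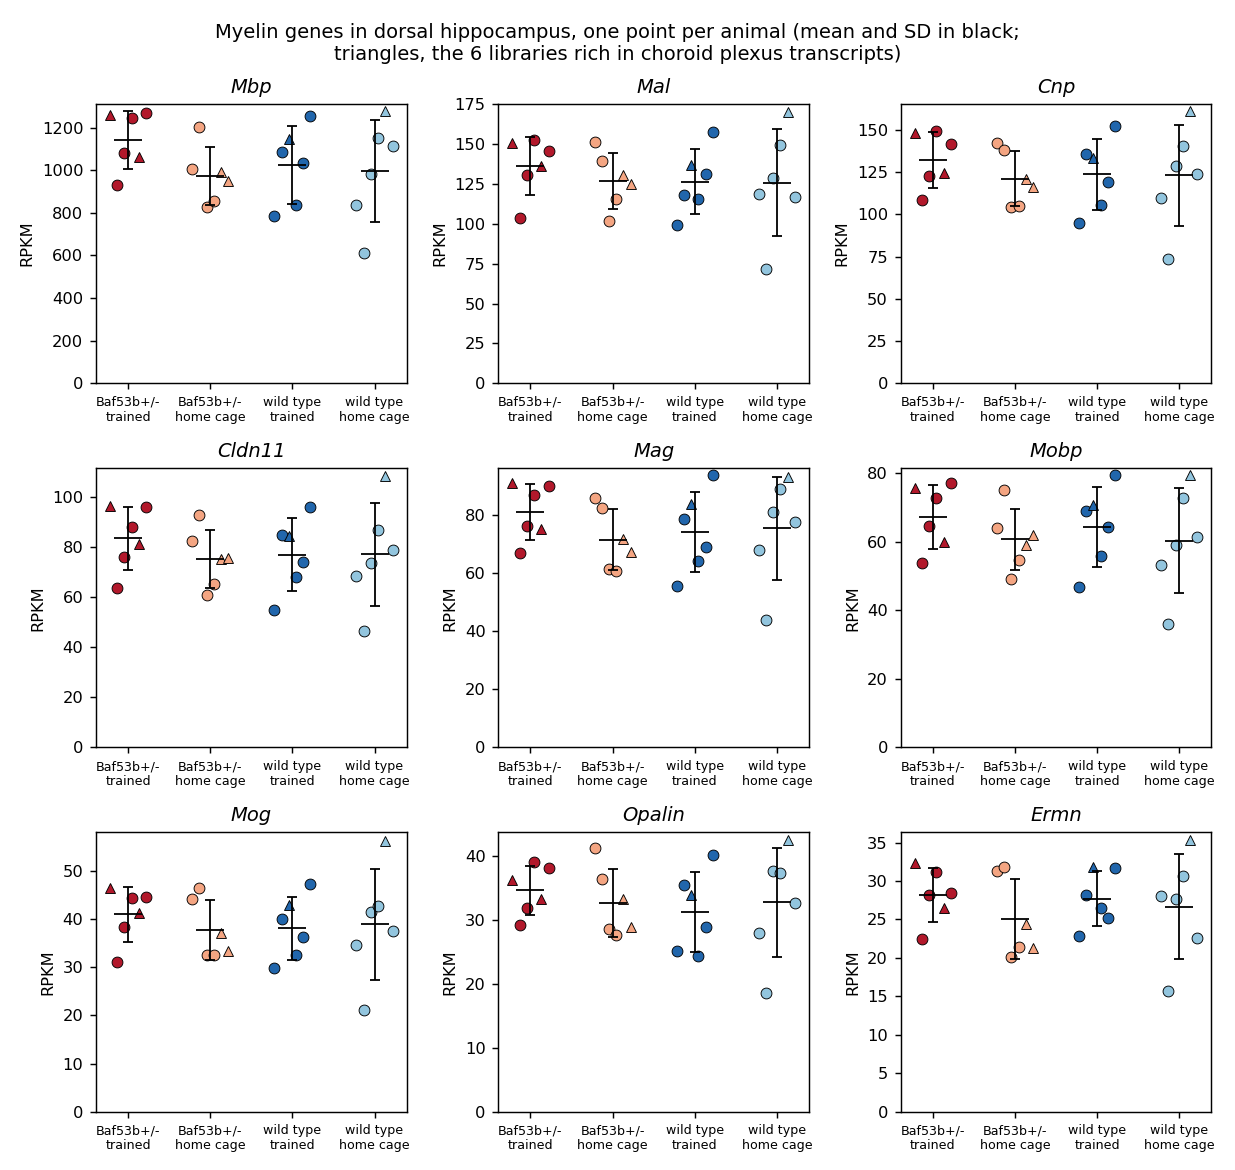
RPKM of each of the 9 genes (vertical axis, from 0) in the 4 groups (horizontal axis), with 1 point per mouse, triangles for the 6 libraries rich in choroid plexus transcripts, and the mean with its SD in black (n = 6). The groups overlap for every gene shown, which was not compared with other tested genes. Home cage wild-type mice hold the lowest value of all 9.

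The 9 genes were high or low together in the same mice. Home cage wild-type mouse 2404 had the lowest level of the 24 mice in all 9 genes, and its deviations from its group mean ran from -0.81 to -0.66 on the log2(RPKM + 0.5) scale. In the same mouse Slc17a7, the vesicular glutamate transporter of excitatory neurons, was at 591 RPKM, the highest of 24, a gene singled out after its values were seen, and its part in the low myelin values was not tested. Mouse 2425 of the same group, one of the libraries rich in choroid plexus transcripts, had the highest level of 24 in 8 genes, while Mag was highest in trained wild-type mouse 2436 at 93.7 RPKM. Trained Baf53b+/- mouse 2410 was lowest of its group in 9 genes, home cage Baf53b+/- mouse 2415 in 7, and trained wild-type mouse 2403 in 8. Between the lowest and the highest of the 24 mice the RPKM differed 2.09-fold for Mbp and 2.67-fold for Mog, with the other 7 genes between. Fewer oligodendrocytes or less myelin in the piece and less RNA per cell cannot be told apart in bulk tissue.

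**Figure D2:**
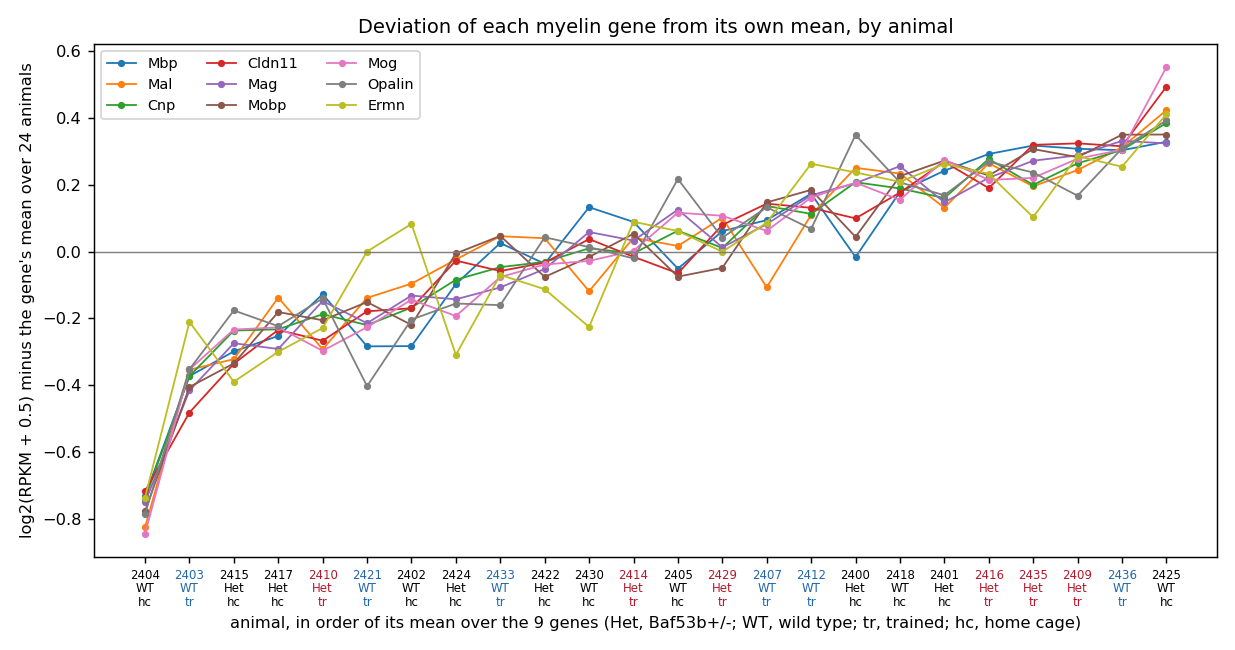
Deviation of log2(RPKM + 0.5) from each gene's mean over 24 mice (vertical axis), with the mice ordered by their mean over the 9 genes (horizontal axis, labelled with mouse number and group, trained mice in colour) and 1 line per gene. The 9 lines run together, from mouse 2404, lowest in all 9 genes, to mouse 2425, highest in 8.

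Once the group mean was taken off, every one of the 36 pairs of genes was correlated between mice. Pearson's r ran from 0.826 for Mbp with Ermn to 0.988 for Mag with Cnp, with a median of 0.946 (24 mice). Adjusted p was at most 4e-05 by a two-sided permutation test within groups with Benjamini-Hochberg adjustment over the 36 pairs, and 1e-05 is the smallest p that 100000 draws can give. Spearman's rho ran from 0.783 to 0.976, with p of at most 5e-05 by the same permutation. Without the 2 mice farthest from the median of the gene on the x axis, r ran from 0.691 to 0.975. Mobp with Cldn11 (r = 0.982), Mbp with Mobp (r = 0.978), Mog with Cnp (r = 0.977) and Cnp with Opalin (r = 0.972) followed Mag with Cnp. Ermn, the cytoskeletal protein, took part in the 4 lowest pairs. With the 6 choroid-rich libraries left out the lowest r was 0.80, and without mouse 2404 it was 0.723. All 36 pairs passed the test without the choroid-rich libraries and without mouse 2404. The values without the 2 farthest mice were not tested.

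The shared movement was most of the variation of these genes. The first principal component of the 9 genes' deviations held 94.3% of their variance and the second 2.43%. The SD within groups was 0.27 to 0.30 on the log2 scale, and only 3.05% (for Mog) to 4.53% (for Cnp) of the 12399 tested genes varied more. Once the mean of the other 8 genes was subtracted, the remaining SD was 0.03 for Cnp, 0.05 for Mag, 0.06 for Mog, 0.07 for Mobp and Cldn11, 0.08 for Mbp and Mal, 0.09 for Opalin and 0.12 for Ermn. Cnp thus followed the others most closely, with r = 0.992 to the mean of the other 8, and Ermn least, with r = 0.909 (24 mice, a description). Among 12398 genes ranked by r with Mog, the other 8 members ranked between 2 and 28. With Ermn they ranked between 20 and 143, with Mbp last.

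The genes most like the 9 were sought among the 12390 other tested genes by r with their mean over 24 mice after group means were taken off. Among the 10 with the highest r were Gjc3 (0.974) and Tspan2 (0.973), which encode a connexin and a tetraspanin of oligodendrocytes. Phldb1 and Tmem88b (0.97 each), Prr18 (0.967), Lass2, a ceramide synthase gene now named Cers2 (0.964), Qdpr and Plekhh1 (0.958 each) and the protease gene Adamts4 (0.954) were also among them. Of the 12390 genes, 74 had r above 0.9, and 18 of the 34 other myelin genes tested were among them. The lowest r belonged to Cwf19l1 (-0.70), Mlx (-0.691) and Sirt5 (-0.677). The points of these correlations share the libraries, so the values are given as a description.

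Each of the 9 genes was then set against the mean log2 level of 14 gene lists, in 126 relations adjusted together, of which 42 passed. The 34 other myelin genes gave r from 0.935 to 0.979. A list of 13 genes of myelin lipid and cholesterol metabolism gave 0.898 to 0.955, and 11 transcription factors of the lineage 0.856 to 0.961. In each of these lists 9 of 9 genes passed (adjusted p = 4.67e-05, permutation test). Spearman's rho was 0.91 to 0.974, 0.863 to 0.947 and 0.821 to 0.935 for these lists, with p of at most 3e-05, and r without the 2 farthest mice was 0.879 to 0.969, 0.802 to 0.921 and 0.739 to 0.926. The list of precursors and premyelinating cells, the earlier stages of the lineage, gave r from 0.718 to 0.816 and rho from 0.55 to 0.686 (rho p of at most 0.00961, permutation test), again 9 of 9 with adjusted p of at most 0.00672. Without the 2 farthest mice its r was 0.409 to 0.619, so this relation rests partly on those mice.

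Over the 24 mice, markers of other tissues and cells gave lower r with the 9 genes than the lists of the lineage. Thalamus markers, from tissue that lies under the hippocampus, gave r from 0.513 to 0.627 and rho from 0.476 to 0.582, and 4 of 9 genes passed (adjusted p 0.016 to 0.073, rho p 0.00585 to 0.037, permutation test). Without the 2 farthest mice r with thalamus markers was 0.321 to 0.648. That range overlaps the 0.409 to 0.619 of the precursor list, so the 2 lists did not separate there. All 10 thalamus markers were tested, and their summed level ran from 37.7 to 56.1 RPKM in trained and 35.3 to 57.2 RPKM in home cage Baf53b+/- mice, and from 36.5 to 54.6 RPKM in trained and 38.0 to 61.0 RPKM in home cage wild-type mice. Their part in the co-variation was not tested. Of 10 Schwann cell markers only Drp2 and Cdh19 passed the filter on low values, and 2 of 9 genes passed with their mean (r 0.428 to 0.614, adjusted p 0.017 to 0.152; without the 2 farthest mice 0.074 to 0.373), while Pmp2 was near 0. Astrocyte (r 0.318 to 0.487), microglia (0.239 to 0.506), endothelial and mural cell (0.24 to 0.369), striatum (0.183 to 0.325), meninges (-0.07 to 0.17), interneuron (-0.082 to 0.126) and excitatory neuron lists (-0.313 to -0.092) passed for 0 of 9 genes, with the lowest adjusted p 0.073, for microglia. In the 18 libraries poor in choroid plexus transcripts, r with the choroid plexus list was 0.362 to 0.459, and 0 of 9 passed (adjusted p 0.138 to 0.224, permutation test). With the 6 choroid-rich libraries left out, the myelin, lipid, transcription factor and precursor lists gave 0.93 to 0.988, 0.877 to 0.955, 0.858 to 0.97 and 0.706 to 0.792, again with 9 of 9 genes passing in each (adjusted p up to 0.0437, permutation test). Microglia markers then gave higher values than over 24 mice, r 0.459 to 0.673, and 2 of 9 genes passed (adjusted p 0.0332 to 0.202, permutation test). All 12 microglia markers were tested, and their summed level ran from 246 to 268 RPKM in trained and 232 to 275 RPKM in home cage Baf53b+/- mice, and from 237 to 276 RPKM in trained and 230 to 266 RPKM in home cage wild-type mice. Their part in the co-variation was not tested. Thalamus (0.442 to 0.618), Schwann cell (0.265 to 0.521) and astrocyte markers (0.242 to 0.451) passed for 0 of 9 genes in these 18 libraries, and the remaining lists ran from -0.238 to 0.358, also with 0 of 9.

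**Figure D3:**
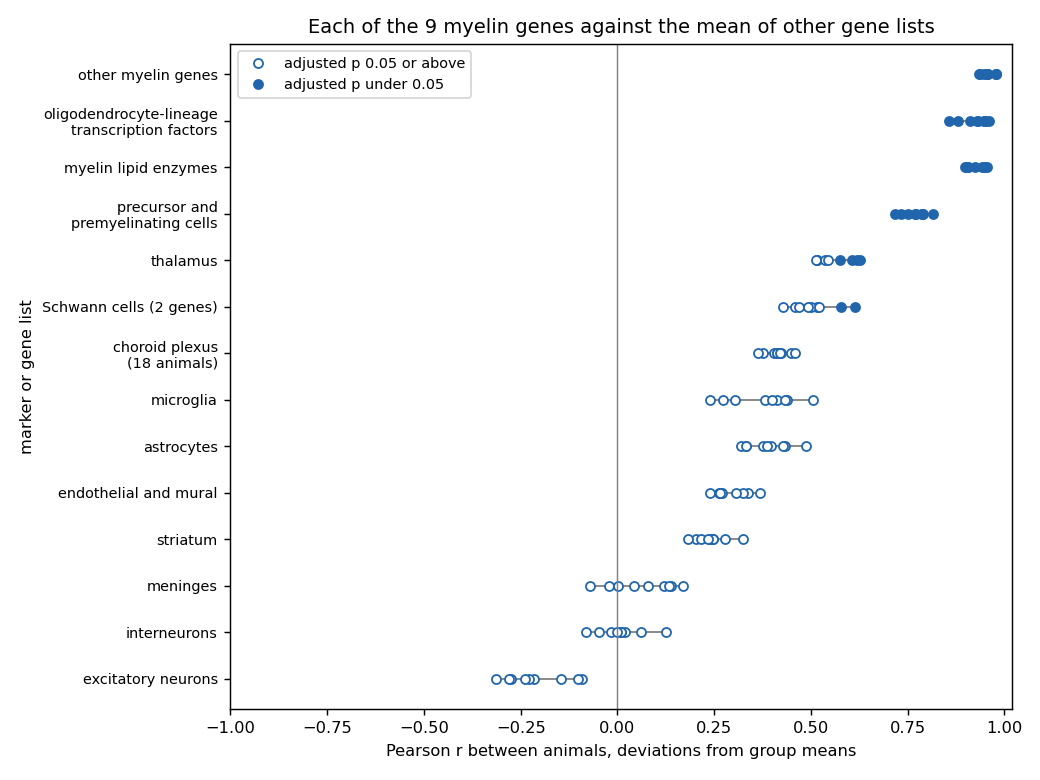
Pearson r over mice (horizontal axis) between each of the 9 myelin genes and the mean of each gene list (vertical axis), after group means were taken off, with 24 mice except for choroid plexus (18). Filled points passed an adjusted p of 0.05; the 34 other myelin genes sit between 0.935 and 0.979, and excitatory neuron markers between -0.313 and -0.092.

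All 9 genes averaged slightly higher in trained than in home cage Baf53b+/- mice, by less than the spread between mice. The fitted difference, trained minus home cage, was 0.23 ± 0.15 for Mbp on the log2(RPKM + 0.5) scale (SE; 95% interval -0.07 to 0.54), 0.18 ± 0.15 for Mag and for Ermn, and 0.09 ± 0.16 for Opalin, the smallest. Ratios of means were 1.06 to 1.17. None of the 9 passed limma's test adjusted over all 12399 genes (lowest adjusted p 0.604, for Mbp), where 1.03% of all genes passed, and 0 of 9 had an unadjusted p under 0.05, as 11.0% of all genes did. The median difference was 0.15, against -0.001 over all tested genes, and 9 of 9 differences were positive against 49.3% of all genes. It was 0.09 without home cage Baf53b+/- mouse 2415 and 0.21 without mouse 2401 of the same group. The 9 genes move together between mice, so their 9 signs are not 9 separate observations. The 95% intervals of the 9 genes ran from -0.24 to 0.54.

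Training in wild-type mice gave differences near 0. Mobp had the highest, 0.11 ± 0.16 (95% interval -0.21 to 0.44), and Opalin the lowest, -0.04 ± 0.16 (-0.37 to 0.29). The median was 0.03 with 7 of 9 positive, against 0.011 and 57.0% over all genes. None of 9 passed (lowest adjusted p 0.841 by limma, 0 at an unadjusted p under 0.05 against 11.1% of all genes), where 1.08% of all genes passed. The sign depended on single home cage mice: without mouse 2404 the median difference was -0.11 and without mouse 2425 it was 0.13, with 0 of 9 called in either. With the 6 choroid-rich libraries left out the median was 0.10 in each genotype, also with 0 of 9 called.

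Between genotypes, the trained mice differed by 0.17 ± 0.15 for Mbp (Baf53b+/- minus wild type; 95% interval -0.14 to 0.47), 0.16 ± 0.16 for Opalin and 0.03 ± 0.15 for Ermn, with a median of 0.11 and 9 of 9 positive. Over all genes the median was -0.005 and 46.7% were positive, and the 9 signs are again not 9 separate observations. The median of the 9 genes was 0.04 without trained wild-type mouse 2403 and 0.19 without trained Baf53b+/- mouse 2410. None of 9 passed (lowest adjusted p 0.993 by limma, 0 at an unadjusted p under 0.05 against 3.69% of all genes), where 0.00807% of all genes passed, which was Actl6b alone. In the home cage the differences ran from -0.07 ± 0.15 for Ermn to 0.05 ± 0.16 for Mal, with a median of 0.00 and 4 of 9 positive, and none passed (lowest adjusted p 0.999 by limma, 0 at an unadjusted p under 0.05 against 3.52% of all genes; 0.00807% of all genes passed). Here too the sign depended on the home cage wild-type mice 2404 and 2425, with a median of -0.14 without the first and 0.10 without the second, and it was also 0.10 with the 6 choroid-rich libraries left out. The comparisons share groups, since each group enters both a training and a genotype comparison.

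The difference between the genotypes in the response to training was itself tested. It ran from 0.04 to 0.19 on the log2 scale over the 9 genes, with a median of 0.11, 95% intervals from -0.42 to 0.63 and a lowest adjusted p of 0.985 by limma. None of 9 and 0.0% of all genes passed, and 309 genes (2.49%) but none of the 9 had an unadjusted p under 0.05. The median was 0.01 without mouse 2425, 0.26 without mouse 2404, and 0.01 with the 6 choroid-rich libraries left out. Averaged over genotypes, trained minus home cage was 0.15 ± 0.10 for Mbp (95% interval -0.07 to 0.36), 0.13 ± 0.11 for Ermn and Mobp and 0.03 ± 0.11 for Opalin. None of 9 passed (lowest adjusted p 0.538 by limma, 0 at an unadjusted p under 0.05 against 16.8% of all genes), where 4.17% of all genes passed, and the median of 0.08 was 0.01 without mouse 2404. Averaged over conditions, Baf53b+/- minus wild type ran from -0.02 to 0.09 with 95% intervals from -0.25 to 0.33, and none of 9 passed (lowest adjusted p 0.999 by limma, 0 at an unadjusted p under 0.05 against 4.49% of all genes), where 0.0242% of all genes passed.

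A more precise comparison asked whether any of the 9 genes differed between groups relative to other myelin genes. For this, chosen after the co-variation was seen, the mean log2 level of the 34 other myelin genes entered the model as a covariate. The SE fell to between 0.034 and 0.057 for a single comparison, from 0.147 to 0.168 without it. None of the 9 genes passed in any of the 7 comparisons. In the same fits, 115 of all 12399 genes passed for training in Baf53b+/- mice, 135 in wild type and 475 on average. For genotype, 2 passed after training, 1 in the home cage and 3 on average, and 0 passed for the difference in response. Training in Baf53b+/- mice gave 0.091 ± 0.055 for Mbp (95% interval -0.023 to 0.205, adjusted p 0.613 by limma) and -0.064 ± 0.054 for Opalin (-0.177 to 0.048, adjusted p 0.731). Averaged over genotypes, the 95% intervals of training over all 9 genes ran from -0.16 to 0.13, and Opalin had the lowest value at -0.077 ± 0.038 (adjusted p 0.328). Averaged over conditions, the intervals of genotype ran from -0.14 to 0.12. Ermn had the lowest value at -0.069 ± 0.033, and its own 95% interval of -0.137 to -0.001 left out 0. Its unadjusted p was 0.0485 and its adjusted p 0.998 by limma. The covariate itself differs between mice and was not tested as an outcome.

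**Figure D4:**
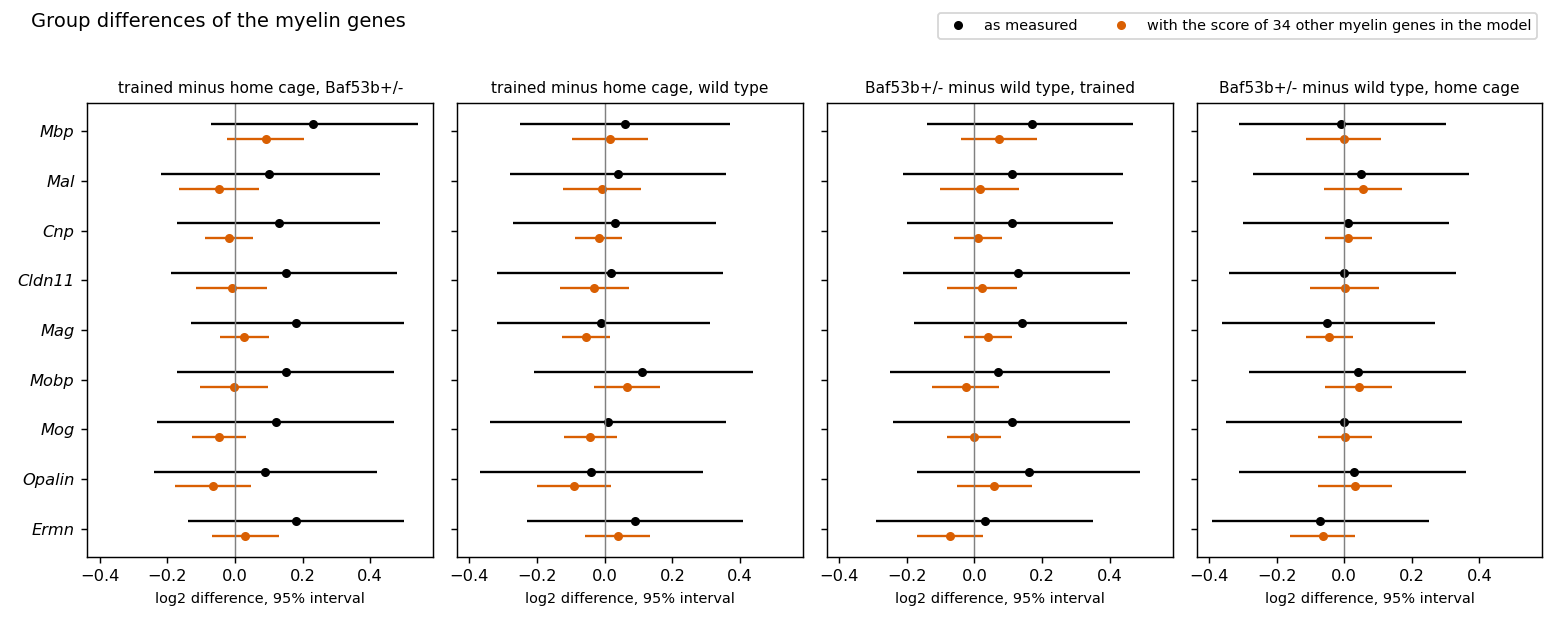
Difference on the log2(RPKM + 0.5) scale with its 95% interval (horizontal axis) for each of the 9 genes (vertical axis) in 4 comparisons, from the fit of the 4 groups alone (black) and with the mean of 34 other myelin genes in the model (orange). Every interval in these 4 comparisons crosses 0, and the orange ones are narrower.

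Other genes of oligodendrocytes were mostly not called either. Of the 34 other myelin genes, 0 passed in each of the 7 comparisons by limma. The share of all genes that passed ran from 0.0% for the difference in response to 4.17% for training averaged over genotypes. An unadjusted p under 0.05 was reached by 2 of the 34 (against 11.0% of all genes) for training in Baf53b+/- mice, by 3 (against 16.8% of all genes) for training averaged over genotypes and by 0 in the other 5 comparisons. Olig2 and Sox10, transcription factors that set and keep oligodendrocyte identity, were near level, with trained minus home cage averaged over genotypes of -0.01 ± 0.07 and 0.08 ± 0.08. Pdgfra, the growth factor receptor of precursors, had -0.10 ± 0.04 (adjusted p 0.222 by limma).

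In the average over genotypes, where 4.17% of all genes passed, Gpr17 and Sox8 rose with training, each 1 called gene of its list. Gpr17, a receptor of premyelinating cells, 1 of 14 tested to pass, averaged 14.6 ± 2.0 RPKM in trained and 11.8 ± 0.945 RPKM in home cage Baf53b+/- mice, and 14.6 ± 1.18 RPKM in trained and 12.6 ± 2.06 RPKM in home cage wild-type mice (SD, n = 6 each). Its difference was 0.25 ± 0.07 (adjusted p 0.028), and the call was lost without trained wild-type mouse 2436 or trained Baf53b+/- mouse 2416 or 2429 (adjusted p up to 0.0529) and with the 6 choroid-rich libraries left out (0.0949). The difference of Gpr17 stayed between 0.22 and 0.28 over these and all other fits run. Sox8, a transcription factor of the lineage and 1 of 11 to pass, averaged 17.2 ± 0.961 RPKM in trained and 15.0 ± 1.63 RPKM in home cage Baf53b+/- mice, and 16.9 ± 1.57 RPKM in trained and 14.8 ± 1.96 RPKM in home cage wild-type mice (SD, n = 6 each). Its difference was 0.20 ± 0.06 (adjusted p 0.0432 by limma), a call lost in 16 of 24 fits that left out 1 mouse, spread over the 4 groups (adjusted p up to 0.0795), and in 3 of 11 other settings (up to 0.272), while its difference stayed between 0.16 and 0.22. These 2 lists had no call in any other comparison. For training in Baf53b+/- mice, where 1.03% of all genes passed, the nearest were Itpr2 and Neu4, genes of premyelinating cells. Both had 0.19 ± 0.05 (adjusted p 0.0525 and 0.0954 by limma). In wild-type mice Itpr2 had -0.02 ± 0.05 and Neu4 0.03 ± 0.05. Their difference in response was 0.21 and 0.16, and neither passed (adjusted p 0.985 each by limma).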

How the data were processed

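RNA from dorsal hippocampus of 24 mice was measured, per the labels' protocols, with RNeasy extraction, TruSeq RNA v2 libraries (no strand kept) and single-end reads of 50 cycles on a HiSeq instrument. The build mm9 and the tools Bowtie 0.12.8 and CASAVA 1.8.2 are those of the submitters' processing notes. RPKM values, in 1 column per mouse, are what the authors deposited. Not given in the sources used here are the annotation, the read total behind the RPKM, how multi-mapping reads were treated, and which multiplex pool held which mouse, so no batch was fitted. The labels number single mice and do not say how cages or litters were spread over groups.

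Depth was recovered from RPKM steps in 924 single-exon genes: at the chosen total 41.5% to 50.5% of values were whole reads to within 0.05, against a median of at most 9.0% at other totals. A count test was not used, since most values did not come out whole. The log2 of RPKM plus 0.5 was fitted with limma 3.58.1 in R 4.3.3 (4 groups in 1 model, empirical Bayes with trend and robust settings) for genes averaging 1 RPKM or more, with Benjamini-Hochberg adjustment over 12399 genes and a threshold of 0.05. The fit was also run on simulated data with independent noise for each gene, which does not model genes that move together. Its outcome is not given here. Correlations used deviations from group means, permuted within groups 100000 times (20000 in alternatives). Libraries were called rich in choroid plexus transcripts above the gap from 1.66 to 3.12 in their mean log2 marker level, a limit set after the levels were seen. Sex, an alternative covariate, was read from Ddx3y and Xist. Alternatives were 2 pseudocounts, 2 filters, 2 scalings, plain empirical Bayes, only the groups compared, the choroid plexus level as a covariate, leaving out each mouse or the libraries rich in choroid plexus transcripts, and, added later, the score of other myelin genes as a covariate. Promoters are from RefSeq (GRCm38.p6), with no coordinates carried over to mm9. The 9 genes and the lists were chosen with earlier results of these data known. Named beside them were Actl6b, Fos, Olig2, Sox10, Pdgfra, from each list at most 4 called genes (with none called, at most 2, taken by p), and genes from the 10 most and the 3 least alike. Some genes that this rule names are not reported here.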

Additional observations from a re-analysis of the deposited data

How the results depend on the processing

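No call of the 9 genes changed: 0 of 9 passed in each of the 7 comparisons under every alternative run, and 36 of 36 pairs passed (lowest r 0.723 to 0.885 when 1 mouse was left out). No paired analysis was possible because every mouse number occurs once. Counts over all genes did move: with the 6 choroid-rich libraries left out, training called 52 genes in Baf53b+/- mice, 65 in wild type and 262 on average, against 128, 134 and 517. Genotype called 1 to 5 genes on average, against 3, and up to 2 after training, against 1. The sign of a difference changed in 89 of 1512 fits that left out 1 mouse, 22 of 666 other fits and 27 of 63 with the score of other myelin genes as a covariate, none past the threshold; the cause was not tested. Counting error at the lowest depth was 4.2% at 20 RPKM for 1 kilobase, which covers neither library nor dissection.

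The values with the sign changed, all log2 differences, follow by alternative. With the choroid plexus level as a covariate, genotype in the home cage was -0.01 for Mobp, Mal and Opalin and -0.04 for Cnp, and training in wild type was -0.01 for Mog and 0.00 for Cldn11. Median-of-ratios scaling gave 0.00 for Mog for training in wild type. Quantile normalization gave -0.01 for Cnp, and sex as a covariate -0.01 for Cnp and Opalin, for genotype in the home cage. With the 6 choroid-rich libraries left out, genotype in the home cage was 0.07 for Mbp and Ermn, 0.15 for Mog, 0.04 for Mag and 0.10 for Cldn11, and on average 0.06 for Ermn. Without them, the difference in response was -0.06 for Mog, -0.02 for Mobp and -0.04 for Mal and Ermn, and training in wild type was 0.02 for Mag and Opalin. With the score of other myelin genes, the changed values ran from -0.07 (Ermn) through -0.03 (Mobp) to 0.00 (Mog) for genotype after training and were 0.00 for Mog and Cldn11 in the home cage and for Mag on average. The same covariate gave -0.07 (Mobp), -0.04 (Mal), -0.01 (Ermn) and 0.00 (Mog, Cnp) for the difference in response. It gave -0.08 (Opalin), -0.04 (Mog), -0.03 (Mal), -0.02 (Cnp, Cldn11) and -0.01 (Mag) for training on average. In Baf53b+/- mice training was -0.06 (Opalin), -0.05 (Mog, Mal), -0.02 (Cnp), -0.01 (Cldn11) and 0.00 (Mobp), and in wild type -0.04 (Mog), -0.03 (Cldn11), -0.02 (Cnp) and -0.01 (Mal).

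Over the fits that left out 1 mouse, the following crossed 0. Genotype in the home cage ran from -0.14 to 0.10 for Cldn11, -0.13 to 0.09 for Cnp, -0.21 to 0.02 for Ermn, -0.19 to 0.02 for Mag, -0.10 to 0.15 for Mal, -0.14 to 0.07 for Mbp, -0.10 to 0.13 for Mobp, -0.17 to 0.11 for Mog and -0.12 to 0.11 for Opalin. Training in wild type ran from -0.12 to 0.13 for Cldn11, -0.11 to 0.12 for Cnp, -0.05 to 0.18 for Ermn, -0.15 to 0.07 for Mag, -0.11 to 0.14 for Mal, -0.07 to 0.14 for Mbp, -0.02 to 0.20 for Mobp, -0.15 to 0.13 for Mog and -0.19 to 0.04 for Opalin. Genotype on average ran from -0.01 to 0.12 for Cldn11, -0.01 to 0.10 for Cnp and Mobp, -0.09 to 0.02 for Ermn, -0.03 to 0.08 for Mag and -0.03 to 0.11 for Mog. Genotype after training ran from -0.03 to 0.09 for Ermn and -0.01 to 0.14 for Mobp. The difference in response ran from -0.03 to 0.22 for Mal, -0.05 to 0.17 for Mobp and -0.01 to 0.27 for Mog. Training on average ran from -0.01 to 0.12 for Mal, -0.01 to 0.13 for Mog and -0.05 to 0.07 for Opalin.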
